A study of Mus musculus with 2 samples.

Results

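The genes of sarcoplasmic reticulum calcium cycling are those that release calcium inside the heart muscle cell at each beat, store it, pump it back and export it. Here 10 genes were followed among 55536 annotated genes: Ryr2, Casq2, Hrc, Trdn, Asph, Jph2, Atp2a2, Pln, Sln and Slc8a1. They were picked out by symbol, with no threshold on a measured value, and all 10 were matched and reached 1 TPM in both libraries. The tissue was heart of male B6CASTF1/J mice aged 18 to 20 months. It was sequenced as total RNA in 2 libraries, biological replicates 1 and 2, each made from 300 ng of input RNA, with ERCC standards spiked in, by a stranded preparation with ribosomal RNA reduced. Strain, sex and age were the same for both, so no comparison between conditions was possible. The libraries come from separate samples with 1 donor identifier in common, and nothing states that they are separate animals. P-values between them therefore set the counts of these samples against counting error alone, and a difference between the samples may be technical.

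In heart muscle, calcium entering through the surface membrane opens the ryanodine receptor Ryr2, and the reticulum empties part of its store onto the myofilaments. Relaxation follows when the pump SERCA2, the product of Atp2a2, returns calcium to the store and the surface exchanger NCX1, the product of Slc8a1, removes the rest. Phospholamban (Pln) and sarcolipin (Sln) are small membrane proteins that restrain the pump. Calsequestrin (Casq2) and the histidine-rich calcium binding protein (Hrc) hold calcium inside the store, triadin (Trdn) and junctin (from Asph) tie calsequestrin to the release channel, and junctophilin (Jph2) holds the reticulum against the surface membrane.

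Expected counts of genes summed to 38858481 for replicate 1 and to 37281459 for replicate 2. Levels are given as TPM, which divides counts by transcript length and sums to a fixed total, so that levels of different genes can be set side by side. That total includes mitochondrial RNA, which took 29.3% of the counts in replicate 1 and 34.4% in replicate 2. Each library also had a second transcript table from a separate quantification. Its values are given for levels, transcript shares and ratios of the 10 genes. The tissue label was checked against marker genes: all 6 cardiac muscle markers were at high levels, summing to 24128 TPM in replicate 1 and 19448 TPM in replicate 2. Of 10 skeletal muscle markers, 9 were under 1 TPM in both libraries, and the gene table held no counts of Myh2 and Myh4, myosins of fast skeletal muscle, in either library. In RNA of heart tissue, fewer cells of a type and less RNA per cell cannot be told apart.

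The 10 genes together summed to 9341 TPM in replicate 1 and 8465 TPM in replicate 2. This was 2.25% and 2.36% of the TPM of nuclear protein-coding genes in replicates 1 and 2 (2.31% ± 0.0775, SD, n = 2). Atp2a2 alone held 51.1% ± 2.70 of their summed TPM and Pln 29.97% ± 2.78, so the pump and its main regulator outweighed the other 8 genes. In order of mean TPM the genes were Atp2a2, Pln, Hrc, Casq2, Ryr2, Slc8a1, Jph2, Trdn, Asph and Sln. Neighbours in this order had values that did not overlap between the libraries, except Hrc with Casq2 and Casq2 with Ryr2. Hrc stood above Casq2 in replicate 2 only, and below it in both libraries of the second table.

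**Figure D1:**
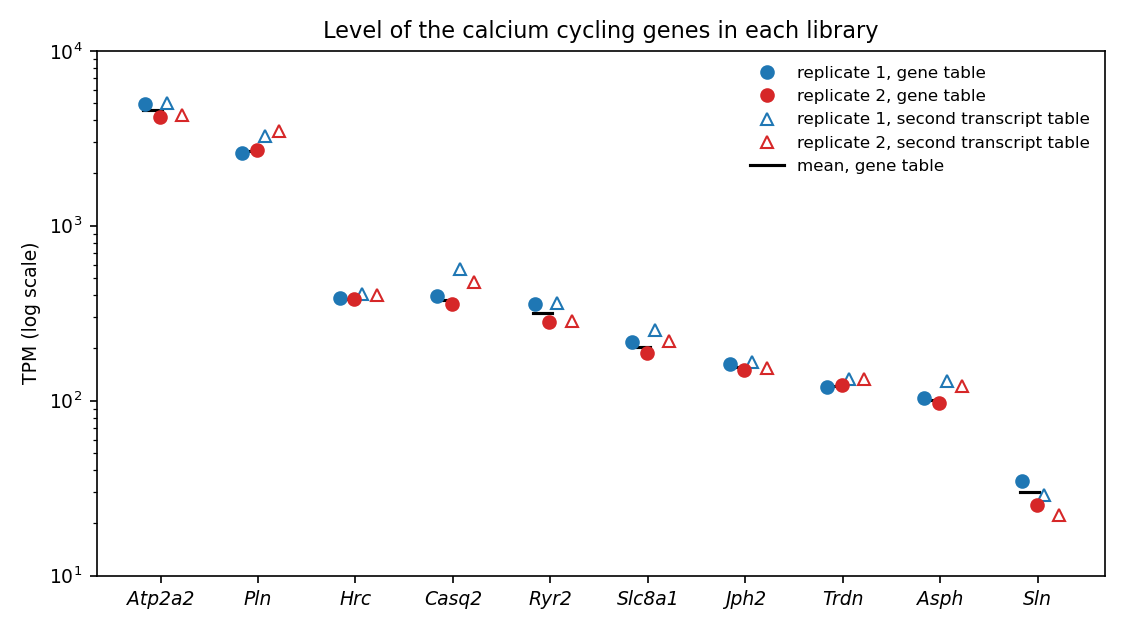
Level of the 10 genes in TPM on a log scale, for replicate 1 (blue) and replicate 2 (red) in the gene table (filled circles) and in the second transcript table (open triangles). Atp2a2 and Pln stand at 2616 TPM or more, Sln is at 34.6 TPM or less, and the other 7 lie between 97.4 and 566 TPM.

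The release channel and the proteins around it lay within a few-fold of each other on the TPM scale. Ryr2, the calcium release channel (chr13:11553102-12106945, minus strand, mm10), had 357 TPM in replicate 1 and 280.0 TPM in replicate 2 (319 ± 54.7, SD, n = 2). It ranked 177 among 22015 nuclear protein-coding genes, and replicate 1 was the higher library in the second table too, at 360.1 and 286 TPM. The full-length transcript Ryr2-201, with 4966 codons in 105 exons, held 86.7% of the gene's TPM in replicate 1 and 86.1% in replicate 2. Ryr2-203, a shorter coding transcript of 1020 codons, held 6.99% and 6.90%, and non-coding transcripts, all retained introns, held 4.70% ± 0.962. The second table gave Ryr2-201 89.96% and 88.4% and Ryr2-203 only 2.35% and 2.69%, so both tables placed most of the signal in the full-length form.

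Casq2, the cardiac calsequestrin and main calcium buffer of the store (chr3:102086415-102146514, plus strand), had 396 TPM in replicate 1 and 357 TPM in replicate 2 (376 ± 27.6). The second table put it higher, at 566 and 477 TPM. The tables also split its transcripts differently. Casq2-201, which encodes the 415-codon protein, held 99.6% and 96.9% of the gene's TPM in replicates 1 and 2 by the first table, against 69.6% and 75.7% by the second. The remainder in the second table was placed on non-coding transcripts: the processed transcript Casq2-202 took 20.9% and 15.7%, and the retained intron Casq2-203 took 9.40% and 8.24%. In the first table Casq2-202 was listed at 0 in both libraries. Whether these non-coding transcripts were present was not tested.

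Hrc, the other luminal calcium buffer (chr7:45335290-45338974, plus strand), had 384 TPM in replicate 1 and 379 TPM in replicate 2 (382 ± 3.83). Its second-table values were 407 and 399 TPM, and its spread was the smallest of the 10 genes relative to the mean in the gene table. That ranking was on TPM as deposited. In the second table Trdn, at 133 ± 0.0880, varied less. After the scaling of libraries described below, Hrc had a log2 ratio of -0.10 between them, and Jph2 a smaller one of -0.02. A single transcript, Hrc-201 of 738 codons, held 99.2% ± 0.414 of the gene. Hrc stood at 0.971 of Casq2 in replicate 1 and 1.06 of it in replicate 2. By the second table, where Casq2 was higher, it stood at 0.7201 and 0.837, so the order of these buffers depended on the table.

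Trdn, the triadin gene whose product anchors calsequestrin to the channel (chr10:33080554-33476709, plus strand), had 120.4 TPM in replicate 1 and 123 TPM in replicate 2 (122 ± 2.00). It had 133 TPM in each library by the second table. Most of it came from a short form: Trdn-202, of 293 codons, held 59.5% and 60.5% of the gene's TPM in replicates 1 and 2. The long form Trdn-201, of 693 codons, held 10.3% and 9.78%. As background, a short triadin is the main form of heart, and a long one is known from skeletal muscle. The coding sequences below show where the forms part, with capitals for the bases after the last one they share. The shared coding sequence runs 848 bases, after which the short form has 34 bases of its own, stop codon included, and the long form 1234, of which 60 are shown.
Trdn-202 coding end: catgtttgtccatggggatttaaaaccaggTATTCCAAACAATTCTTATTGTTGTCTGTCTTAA
Trdn-201 coding end: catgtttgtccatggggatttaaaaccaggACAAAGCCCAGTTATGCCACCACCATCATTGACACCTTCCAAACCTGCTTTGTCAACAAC
The ratio of the short to the long form was 5.80 in replicate 1 and 6.18 in replicate 2 (5.99 ± 0.268). By the second table it was 4.41 and 4.56, so the short form led under both quantifications. Trdn-204, a retained intron with a single exon, held 20.2% and 18.8% of the gene by the first table and 14.7% and 14.1% by the second. Trdn-208, a coding transcript of 277 codons, held 6.56% and 6.17%, against 12.8% and 13.5% in the second table. An antisense gene, D830005E20Rik, overlaps Trdn and had 11.8 TPM in replicate 1 and 10.5 TPM in replicate 2, which is 9.13% of the level of Trdn. The library preparation was stranded per the labels, and how strand entered the quantification is not given in the sources used here.

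Asph, which gives junctin and the much longer aspartate beta-hydroxylase from one locus (chr4:9448069-9669344, minus strand), had 104 TPM in replicate 1 and 97.4 TPM in replicate 2 (101 ± 4.78). In the second table it had 129.9 and 121 TPM. It had the most annotated transcripts of the 10 genes, 20, of which 5 held 5% or more in both libraries. The leading transcript, Asph-206, of 207 codons, held 36.95% and 37.2% of the gene's TPM in replicates 1 and 2. The full-length hydroxylase transcript Asph-202, of 741 codons, held 6.56% and 6.14%. These forms differ in their first coding exon, shown here in capitals and followed by the 30 bases that both share.
Asph-206 coding start: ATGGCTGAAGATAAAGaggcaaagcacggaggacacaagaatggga
Asph-202 coding start: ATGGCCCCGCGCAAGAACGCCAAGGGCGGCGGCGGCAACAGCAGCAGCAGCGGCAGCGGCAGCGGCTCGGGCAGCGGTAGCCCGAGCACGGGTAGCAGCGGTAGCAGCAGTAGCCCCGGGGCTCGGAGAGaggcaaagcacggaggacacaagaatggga
They differ at the other end as well. Asph-206 and Asph-201 end their coding sequence in an exon of 344 bases (chr4:9621883-9622226), a short, junctin-type class that held 48.8% and 46.7% of the gene in replicates 1 and 2. The 3 transcripts that reach the end of the hydroxylase together held 10.4% and 11.5%. By the second table these classes held 58.9% and 57.8% for the short end and 9.27% and 10.2% for the hydroxylase end, so the order of the classes was kept. The split within the short class was not: Asph-201, of 245 codons, held 11.9% and 9.50% by the first table and 26.0% and 23.8% by the second. Asph-220, a coding transcript with no annotated stop codon, held 20.2% and 20.8% by the first table and 12.6% and 11.6% by the second. Asph-208, of 272 codons, held 13.9% and 14.9%, against 11.0% and 12.9%. Asph-211, of 658 codons and with the hydroxylase end, held 3.83% and 2.06%, against 5.72% and 6.39%.

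Jph2, the cardiac junctophilin that tethers the reticulum to the surface membrane (chr2:163336242-163397993, minus strand), had 162 TPM in replicate 1 and 150.3 TPM in replicate 2 (156 ± 8.37). Its second-table values were 167 and 153 TPM, close to the first. Jph2-201 held 99.6% ± 0.0901 of the gene. The other transcript, Jph2-202, has the same 696 codons, so the choice between them leaves the coding length as it is.

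On the uptake side, the pump and phospholamban were the most abundant of the 10 genes and sarcolipin was the least. Atp2a2, the SERCA2 pump (chr5:122453513-122502225, minus strand), had 4949.8 TPM in replicate 1 and 4162 TPM in replicate 2 (4556 ± 557). It was the gene of rank 6 among nuclear protein-coding genes. Its expected counts, 604194 and 505517, made up 1.55% of all counts in replicate 1 (95% Clopper-Pearson interval 1.551 to 1.559) and 1.36% in replicate 2 (1.352 to 1.360). These intervals cover counting error only, and they did not overlap. The second table was close, at 5041 and 4289.6 TPM.

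Atp2a2 encodes a muscle form, SERCA2a, and a widespread form, SERCA2b, which adds a longer tail at the carboxyl end. The coding ends below show the 2 tails, with capitals for the bases after the last of 2983 shared coding bases. The muscle form, Atp2a2-202, adds 14 bases with its stop codon, and the widespread form, Atp2a2-201, adds 152.
Atp2a2-202 coding end: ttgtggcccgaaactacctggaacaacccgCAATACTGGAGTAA
Atp2a2-201 coding end: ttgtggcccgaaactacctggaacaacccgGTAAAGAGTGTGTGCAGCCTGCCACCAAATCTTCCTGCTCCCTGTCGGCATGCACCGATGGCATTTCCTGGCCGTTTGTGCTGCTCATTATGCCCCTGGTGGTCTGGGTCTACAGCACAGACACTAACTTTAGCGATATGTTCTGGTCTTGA
Atp2a2-202, of 998 codons, held 73.7% of the gene's TPM in replicate 1 and 77.1% in replicate 2, and Atp2a2-201, of 1044 codons, held 24.2% and 21.2%. On the TPM scale this was 3648 and 3209 TPM of the muscle form, beside 1199 and 883 TPM of the widespread form. The widespread form stood at 0.329 of the muscle form in replicate 1 and 0.275 in replicate 2 by the first table. By the second it stood at 0.216 and 0.184, so the muscle form led in both tables while the ratio itself moved with the quantification. The tail of Atp2a2-201 runs on from the last shared base into sequence that is intron in Atp2a2-202. Unspliced RNA of the muscle form would carry that sequence too. In this total RNA the 2 were not told apart, so the share of Atp2a2-201 may include unspliced RNA. The transcripts are separated by part of their length. Of the 3885 stretches of 100 bases in Atp2a2-202, 791 are missing from Atp2a2-201, and of the 4387 in Atp2a2-201, 1293 are missing from Atp2a2-202. In each transcript 86 stretches also occur in the gene Gm30970, and none of the other 9 genes shared such a stretch with another gene.

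Pln, the phospholamban gene (chr10:53337667-53345987, plus strand), had 2616 TPM in replicate 1 and 2703 TPM in replicate 2 (2659.8 ± 61.4). It ranked 13 among nuclear protein-coding genes. In the second table it was higher, at 3237 and 3478 TPM. The protein has 52 codons in a single coding exon (chr10:53343864-53344019, coding bases without the stop codon), and its restraint of the pump is lifted when adjacent serine and threonine residues are phosphorylated. Their codons, 16 and 17, are in capitals in the coding sequence, which all 6 annotated transcripts share in full.
Pln coding sequence: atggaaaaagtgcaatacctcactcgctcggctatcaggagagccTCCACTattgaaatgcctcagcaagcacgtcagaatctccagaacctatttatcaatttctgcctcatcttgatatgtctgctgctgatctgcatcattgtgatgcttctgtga
Because of this, the transcripts of Pln differ in their untranslated parts alone. Pln-201, of 2334 bases, held 54.7% and 56.2% of the gene's TPM in replicates 1 and 2, and the 531-base Pln-205 held 31.0% and 31.2%. Pln-204, of 771 bases, held 7.78% and 9.52%. The second table listed Pln-205 at 0 in both libraries and gave Pln-204 53.7% and 56.8%, ahead of Pln-201 at 43.3% and 41.2%. The leading transcript of Pln therefore depended on the table, while the coding sequence did not. Pln-205 has 89 stretches of 100 bases, of 432, that no other annotated transcript holds.

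Sln, the sarcolipin gene (chr9:53850164-53854560, plus strand), was the lowest of the 10. It had 34.6 TPM in replicate 1 and 25.3 TPM in replicate 2 (29.97 ± 6.61), from 1303 and 945 expected counts. Second-table values were 28.9 and 22.2 TPM. It has a single annotated transcript, and every stretch of 100 bases in it, 1219 in all, was unique among annotated transcripts, so its reads are not shared with another gene. Its 31 codons, shown with the start and stop codons in capitals, make it the shortest product of the set.
Sln coding sequence: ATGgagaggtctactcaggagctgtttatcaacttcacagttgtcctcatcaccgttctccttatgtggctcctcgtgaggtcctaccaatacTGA
Sarcolipin is known as the pump regulator of the atria in rodents, and most markers of atrial muscle were, like Sln, higher in replicate 1. So were all 6 cardiac muscle markers, with log2 ratios of 0.02 to 0.28 after the scaling of libraries described below. All 10 atrial markers were detected, summing to 1444 TPM in replicate 1 and 867 TPM in replicate 2. Of them, 8 were higher in replicate 1 beyond counting error, by an exact test of counts between the libraries, and none lower, against 15.8% and 10.6% of all genes. Their log2 ratios of replicate 1 over replicate 2 ranged over -0.17 to 3.44, with a median of 0.43. These markers were chosen with earlier results of these data known, so their count is a description and not a test of atrial content. Among the defining ones, Nppa, the atrial natriuretic peptide, had 769 and 415 TPM, and Bmp10, a secreted factor of the atrial wall named after its values were seen, had 18.5 and 1.55 TPM. Kcnj3, a potassium channel gene, and Nr2f2, a transcription factor of atrial identity, had log2 ratios of -0.02 and -0.17 and were not called. The 6 ventricular markers had a median log2 ratio of -0.03 and went both ways: Myl3 (0.20) and Fhl2 (0.16) were called higher in replicate 1, and Myh7 (-0.35) and Myl2 (-0.02) lower. The part of atrial muscle in the level of Sln was not tested.

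Slc8a1, the sodium-calcium exchanger NCX1 of the surface membrane (chr17:81373105-81738377, minus strand), had 216 TPM in replicate 1 and 188 TPM in replicate 2 (202 ± 20.3). In the second table it had 253 and 219 TPM. Its transcripts share a coding exon of 1799 bases (chr17:81647809-81649607), and 1 of them, Slc8a1-205, has that exon as its whole annotated coding sequence, with no annotated stop codon. Slc8a1-205 held 34.6% and 33.9% of the gene's TPM in replicates 1 and 2 by the first table, and 51.1% and 50.03% by the second. As background, this exon is known to form a circular RNA in heart; circular and linear RNA were not told apart here. The complete transcript Slc8a1-202, of 970 codons, held 40.9% and 36.6% by the first table, against 8.83% and 9.03% by the second. Slc8a1-201, which has the same coding length, was listed at 0 in replicate 1 and held 4.52% in replicate 2 by the first table, and held 18.0% and 16.1% by the second. Every stretch of 100 bases in Slc8a1-201 also occurs in Slc8a1-202, and neither has a stretch of its own among annotated transcripts. For Slc8a1-201 in replicate 1 the authors' deposited bounds ran over 0.275 to 10.6 TPM, so the split between these forms is uncertain.

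The exchanger is spliced in its large cytosolic loop, where small exons are used in different combinations by different tissues. In Slc8a1-202 there are 3 small exons in a row, of 21, 18 and 15 bases (chr17:81441652-81442223), joined here with capitals for the pair that Slc8a1-204 lacks.
Slc8a1-202 small coding exons: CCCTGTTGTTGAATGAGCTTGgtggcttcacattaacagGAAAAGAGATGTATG
Transcripts with all 3 of these exons held 86.0% and 85.5% of the TPM of coding transcripts with several coding exons, in replicates 1 and 2. By the second table they held 82.3% and 81.4%, so forms with all 3 exons made up most of this TPM in both tables. Slc8a1-206, of 940 codons, has all 3 exons and held 15.3% and 15.5% of the gene's TPM. Slc8a1-204, of 958 codons and 18464 bases in all, held 9.16% and 9.59%. On expected counts, which are not divided by length, Slc8a1-204 held 41.0% and 42.3% of the gene. Reads over the small exons were not counted.

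**Figure D2:**
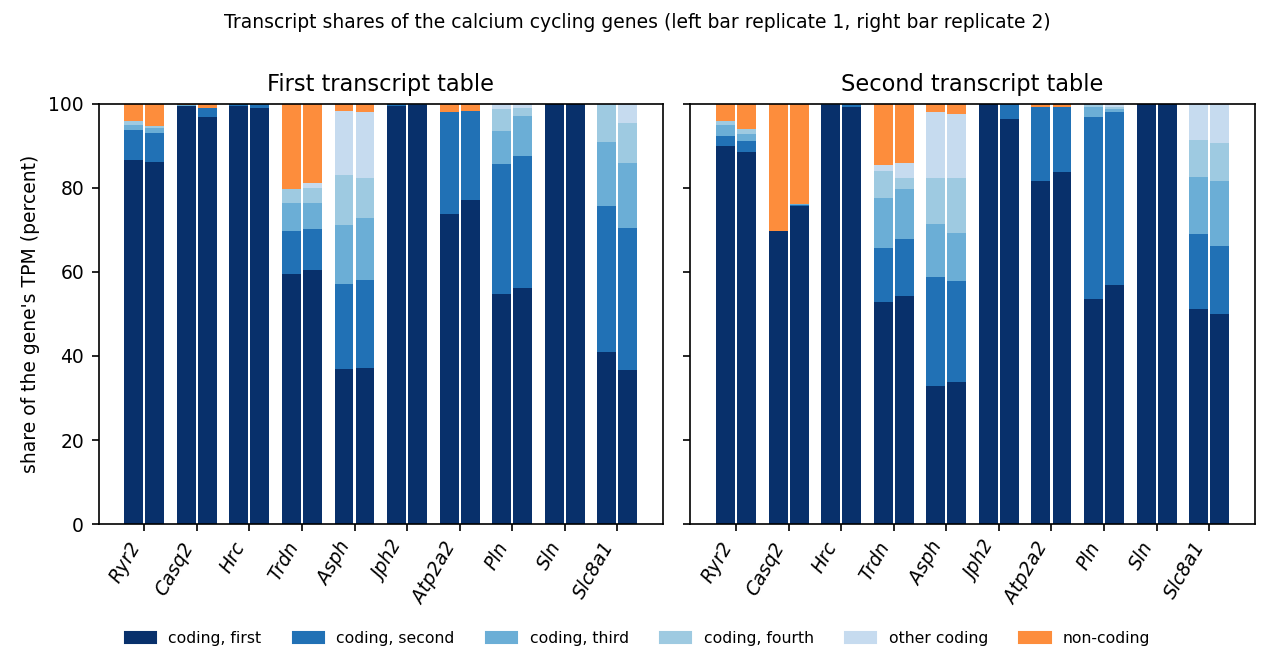
Share of each gene's TPM held by its transcripts, in percent, in the first (left panel) and the second transcript table (right panel); for each gene the left bar is replicate 1 and the right bar replicate 2, coding transcripts are stacked in blue in order of their mean share within that table, and non-coding transcripts are in orange. In several genes, Casq2, Pln, Slc8a1, Asph and Trdn among them, the bars differ more between the tables than between the libraries. In Casq2 non-coding transcripts hold under 1% by the first table and 30.3% and 23.9% by the second.

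In all, 8 of the 10 genes had a transcript with over 50% of the gene's TPM in both libraries, Asph and Slc8a1 being the others. The second table gave 9, with Slc8a1 joining through Slc8a1-205. The leading transcript was the same in both tables for 8 genes and differed for Pln and Slc8a1.

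Ratios between the genes were taken within each library on the TPM scale, so they are ratios of transcript levels and not of proteins. Pln stood at 0.529 of Atp2a2 in replicate 1 and 0.649 in replicate 2 (0.589 ± 0.0855), so transcripts of the pump outnumbered those of its main regulator in both libraries. By the second table the ratio was 0.642 and 0.811, the same order with a higher ratio. Sln stood at 0.0132 of Pln in replicate 1 and 0.00936 in replicate 2, and at 0.00700 and 0.00608 of Atp2a2. By the second table it stood at 0.00892 and 0.00638 of Pln and at 0.00573 and 0.00518 of Atp2a2. In the gene table phospholamban transcripts thus outnumbered sarcolipin transcripts 75.5-fold in replicate 1 and 107-fold in replicate 2.

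Against the release channel, Atp2a2 stood at 13.9 times Ryr2 in replicate 1 and 14.9 times in replicate 2 (14.4 ± 0.714), nearly the same as in the second table, at 14.0 and 15.02. Casq2 was at 1.11 and 1.27 times Ryr2, and at 1.57 and 1.67 times in the second table. The anchor genes, with all transcripts, were lower than the channel: Trdn stood at 0.337 and 0.440 of Ryr2, and Asph at 0.291 and 0.348. In the second table these were 0.3698 and 0.467 for Trdn and 0.361 and 0.423 for Asph. Jph2 was at 0.454 and 0.537 of Ryr2, close to the second table's 0.465 and 0.536. Slc8a1 was at 0.605 and 0.670 of Ryr2, and at 0.703 and 0.766 in the second table. All 6 ratios to Ryr2 were lower in replicate 1 in both tables, and they share Ryr2, which was higher there, as their denominator.

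Counted with all transcripts, the anchor genes were close to each other. Asph stood at 0.865 of Trdn in replicate 1 and 0.790 in replicate 2, and at 0.976 and 0.906 in the second table. Counting protein-coding transcripts alone, which leaves out the retained intron of Trdn, put Asph at 1.07 and 0.954 of Trdn. The junctin-type class was only 48.8% and 46.7% of Asph in the first table, so these ratios are not those of junctin to triadin. Trdn stood at 0.304 and 0.345 of Casq2, and at 0.235 and 0.279 in the second table. Atp2a2, which returns calcium to the store, was at 22.9 and 22.2 times Slc8a1, which exports it (22.5 ± 0.495), and at 19.9 and 19.6 times in the second table.

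**Figure D3:**
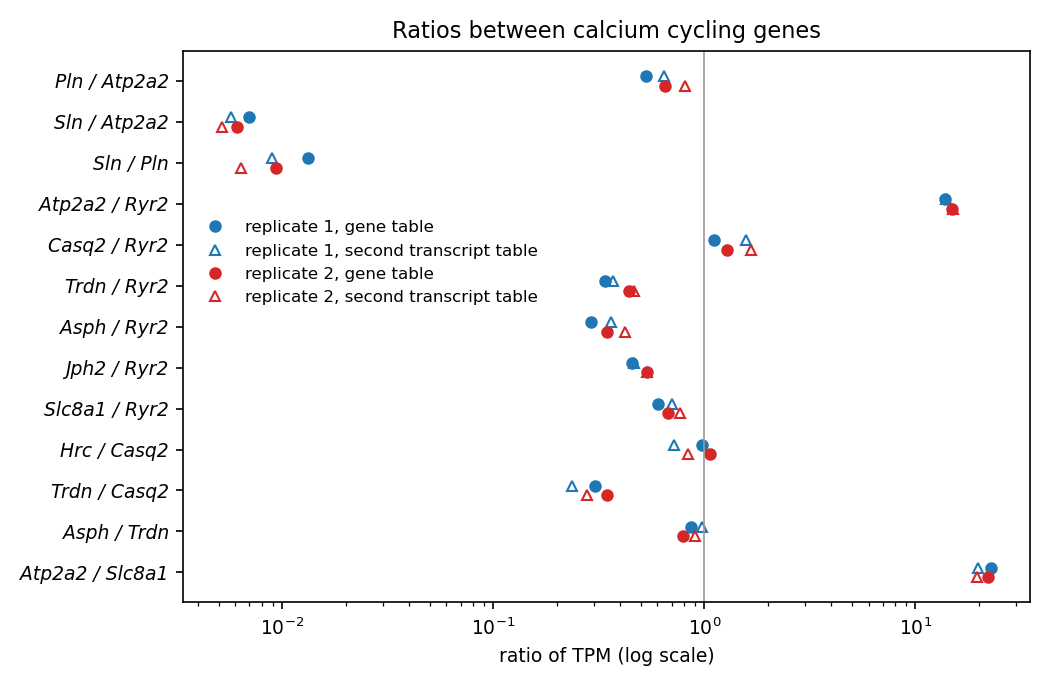
Ratios of TPM between pairs of the 10 genes on a log scale, replicate 1 in blue and replicate 2 in red, with circles for the gene table and open triangles for the second transcript table; the vertical line marks a ratio of 1. Pln to Atp2a2 lies below 1 in every case, and Hrc to Casq2 is the pair that lies on both sides of 1.

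The libraries were then compared gene by gene, as the log2 ratio of replicate 1 over replicate 2 after TMM scaling of expected counts. None of the 10 genes differed by 2-fold, against 1.66% of the 12189 genes whose mean TPM was 1 or more. Beyond counting error, by an exact conditional binomial test with Benjamini-Hochberg adjustment over all 12189 genes at 0.05, 9 of the 10 differed, against 26.3% of all genes. These were 5 genes higher in replicate 1, against 15.8% of all genes, and 4 lower, against 10.6%. Among the 3037 genes whose mean TPM was 20 or more, 1016 were called higher and 475 lower. The test compares these libraries and not conditions, and counts as high as those of Atp2a2 let it find small differences. The median absolute log2 ratio was 0.11 for the 10 genes, 0.12 for all genes tested and 0.10 for the 3037 genes whose mean TPM was 20 or more.

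Higher in replicate 1 were Sln, Ryr2, Atp2a2, Slc8a1 and Casq2. Sln had a log2 ratio of 0.33 (95% interval 0.20 to 0.45; adjusted p = 1.39e-06 by the exact test). Ryr2 had 0.23 (0.22 to 0.24) and Atp2a2 0.12 (0.11 to 0.13). Slc8a1, at 0.06, and Casq2, at 0.03 with an adjusted p of 0.0422 by the exact test, were the smallest called differences in this direction. After TMM scaling, all 6 cardiac muscle markers were also higher in replicate 1 beyond counting error. Their median log2 ratio was 0.11, with a range of 0.02 to 0.28. Called higher were 15.8% of all genes and 1016 of the 3037 genes whose mean TPM was 20 or more. Other heart muscle genes went the other way, with Myh7 at -0.35 and Myl2 at -0.02, both called. The part of muscle content in these differences was not tested.

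Lower in replicate 1 were Pln, Trdn, Hrc and Asph. Pln had a log2 ratio of -0.16 (95% interval -0.17 to -0.15), Trdn -0.13 (-0.18 to -0.08), Hrc -0.10 (-0.12 to -0.08) and Asph -0.09 (-0.14 to -0.04). Jph2, at -0.02 with an interval of -0.05 to 0.01, was not called (adjusted p = 0.401 by the exact test). Markers of other cell types differed as well. All 5 endothelial markers had negative log2 ratios after TMM scaling, with a median of -0.12. Of these, 3 were called lower in replicate 1, Kdr at -0.45 and Cldn5 at -0.47 among them. Of 5 fibroblast markers, Col1a1 and Col3a1 were called higher, each at 0.56, and Dcn and Pdgfra lower, at -0.08 and -0.25. Smooth muscle and pericyte markers had 1 of 5 called lower and none higher. Their part in the differences of the 10 genes was not tested. Atp2a2 and Pln thus differed in opposite directions between the libraries.

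The direction of the small differences rested on how the libraries were scaled. With total counts in place of TMM, 6 of the 10 genes were called higher in replicate 1 and 1 was called lower, against 28.3% and 5.69% of all genes. With the summed spike-ins, 3 were called higher and 7 lower, against 8.04% and 23.3% of all genes, so all genes swung the same way. Jph2 was called under both, higher with total counts (log2 ratio 0.06, adjusted p = 0.000305 by the exact test) and lower with spike-ins (-0.11, adjusted p = 1.93e-13 by the exact test). Ryr2, Atp2a2 and Sln were higher in replicate 1 and Pln lower under TMM, total counts, spike-ins and DESeq2 size factors. The size of the difference moved: Atp2a2 had a log2 ratio of 0.12 with TMM, 0.20 with total counts and only 0.026 with spike-ins. With spike-ins Ryr2 had 0.14, Sln 0.23 and Pln -0.26. Without the filter on TPM, Casq2 missed the threshold (adjusted p = 0.0751 by the exact test). Marker genes were compared under TMM scaling alone. The log2 ratio of library sizes was 0.14 with TMM, 0.06 with total counts and 0.23 with spike-ins. Marker ratios near 0 could therefore change sign with the scaling.

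**Figure D4:**
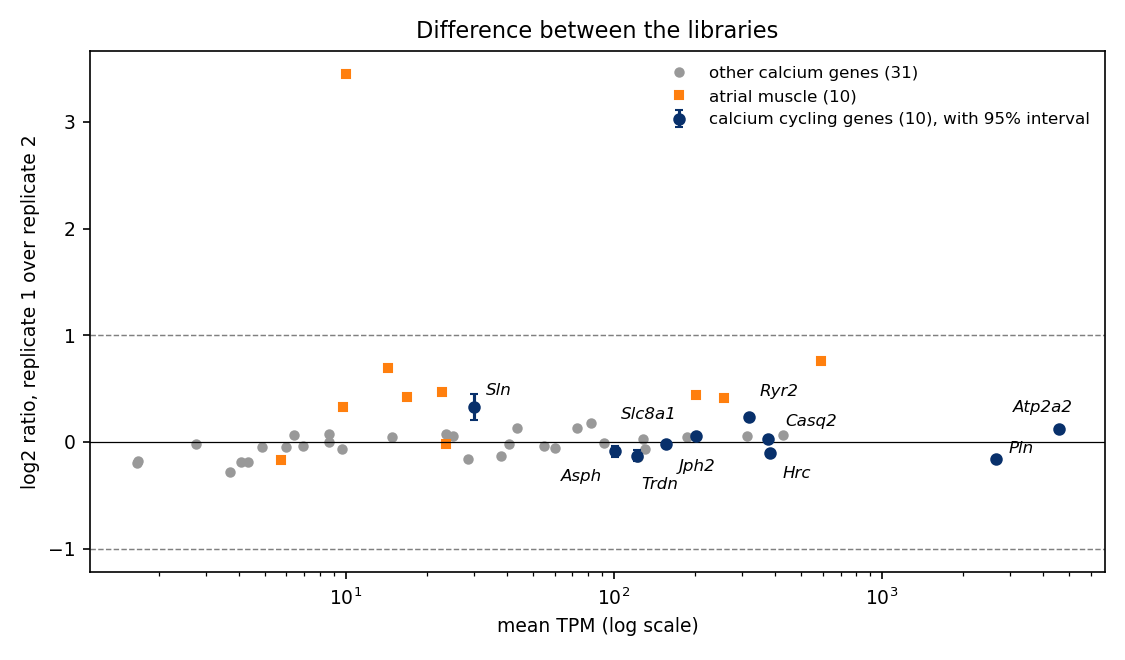
Log2 ratio of replicate 1 over replicate 2 after TMM scaling, against mean TPM on a log scale, for the 10 calcium cycling genes (dark blue, with 95% intervals for counting error), 31 other calcium genes (grey) and 10 atrial muscle markers (orange squares). The dashed lines mark 2-fold; all 10 genes lie between them, and Sln, at 0.33, is the highest of them.

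Of the 10 genes, 5 were set against their paralogs, and each of these 5 held most of the TPM. Atp2a2 held 99.9% of the TPM of the SERCA genes, beside Atp2a1 and Atp2a3 of other tissues, and Ryr2 held 99.9% of the ryanodine receptors. Casq2 held 99.8% against Casq1, the skeletal calsequestrin, and Slc8a1 held 99.8% against Slc8a2 and Slc8a3. Slc8b1, a more distant exchanger of mitochondria that was not part of that share, had 3.82 TPM in replicate 1 and 4.31 TPM in replicate 2. Among the junctophilins Jph2 held 94.7% ± 0.232, with Jph1, the skeletal muscle form, at 9.27 TPM in replicate 1 and 8.06 TPM in replicate 2. Of the FK506-binding proteins that sit on the channel, Fkbp1a was at 91.2 TPM in replicate 1 and 72.7 TPM in replicate 2. The second table put Fkbp1a higher, at 181 and 103 TPM. Fkbp1b, the form known to bind Ryr2 tightly, was at 0.300 and 0.260 TPM, from only 8 and 7 expected counts. Fkbp1a thus held 99.7% of the TPM of this pair in the gene table.

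A list of 42 further calcium handling genes gave 41 matches, of which 31 had 1 TPM or more in both libraries. The highest of them was S100a1, a calcium sensor that binds the pump and the channel, with 457 TPM in replicate 1 and 399 TPM in replicate 2. Sarcalumenin (Srl), a luminal calcium-binding protein, had 335 and 294 TPM, and Tmem38a, a counter-ion channel of the reticulum, had 198 and 175 TPM. S100a1 stood above Casq2 in both libraries of the gene table, and Srl between Slc8a1 and Casq2. Canx and Calr, chaperones of the reticulum, had 131 and 129 TPM and 123.1 and 122.8 TPM, and Cmya5, a large muscle scaffold protein, had 135 and 121 TPM. Of the 31, 6 were higher in replicate 1 beyond counting error, against 15.8% of all genes, and 4 lower, against 10.6%. The other 21 were within it, and none differed by 2-fold. Those under 1 TPM in both libraries were 9: Atp2a1, Ryr1, Ryr3, Jph3, Jph4, Slc8a2, Slc8a3, Fkbp1b and Jsrp1. Casq1 was at 1.10 TPM in replicate 1 and 0.580 TPM in replicate 2.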

How the data were processed

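Total RNA of mouse heart was measured in 2 libraries of 1 group. Expected counts and TPM in the gene table and first transcript table, and estimated counts and TPM in the second transcript table, were used as deposited, on mm10 with GENCODE M21 per the deposited file list. The quantification tools are not given in the sources used here. The first table's lower and upper bounds (signal, on the TPM scale, as deposited) lie around the authors' posterior mean TPM, and their credibility level is not stated. Effective lengths were 99 bases under transcript length in the first table and 309 (replicate 1) or 323 (replicate 2) in the second.

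Genes were matched by symbol and gene identifier. Counts were rounded, and libraries scaled by TMM (edgeR 4.0.16, R 4.3.3), with total counts, spike-ins and DESeq2 1.42.0 size factors as alternatives. The log2 ratio of replicate 1 over replicate 2 used a prior count of 2. Genes whose mean TPM was 1 or more were compared by a two-sided exact conditional binomial test (scipy 1.17.1) on rounded counts with Benjamini-Hochberg adjustment. The exact test was also run on simulated counts with equal library sizes, so the scaling of libraries was not covered. Spike-ins, and entries with a number in place of a gene (1.94 counts in replicate 1 and 1 in replicate 2), were left out. Coding sequences and 100-base stretches come from GENCODE M21 transcripts.

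All 10 genes, their leading transcripts and those at 5% or more in both libraries in either table were to be named. Of the other calcium genes, paralogs, the 6 of highest TPM, Fkbp1a, Fkbp1b and those under 1 TPM in both libraries were named. The genes and lists were chosen with earlier results of these data known. Marker lists for smooth muscle, endothelium, fibroblasts and neurons summed to 200.4, 129, 218 and 0.910 TPM in replicate 1 and to 185, 133, 193 and 0.770 TPM in replicate 2.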

Additional observations from a re-analysis of the deposited data

How the results depend on the processing

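No paired analysis was possible because the 2 libraries form 1 group. Precision is limited by having 2 libraries, which may not measure the spread between hearts. It is also limited for transcripts with few or no stretches of their own. Slc8a1-201, Slc8a1-202, Asph-201, Asph-202, Asph-208 and Asph-220 had none. The share of stretches found in no other transcript was 0.700% for Ryr2-201, 1.16% for Atp2a2-201 and 2.55% for Atp2a2-202. It was 3.69% for Trdn-202 and 5.33% for Casq2-201. The ratio of Pln to Atp2a2, 0.589, was 0.727 in the second table and 0.224 on expected counts, which are not divided by length; leaving out a replicate gave 0.529 and 0.649. The share of the 10 genes in nuclear protein-coding TPM, 2.31%, was 2.05% in the second table and 4.12% on expected counts. The number of the 10 genes apart beyond counting error ranged over 7 to 10, beside 12.9% to 35.02% of all genes, and none was 2-fold apart, under total counts, spike-ins, DESeq2 size factors, no filter, a minimum of 5 TPM and the second table. The median log2 ratio of all genes was 0.02 with TMM, 0.10 with total counts and -0.08 with spike-ins. The log2 ratio of Jph2 reversed to 0.059 with total counts and 0.026 in the second table, and those of Casq2 and Slc8a1 reversed to -0.063 and -0.039 with spike-ins. With total counts Hrc, Trdn and Asph (-0.02, -0.05 and -0.01) were no longer called, nor was Casq2 without the filter. The number of genes with a transcript over 50% was 8, and 9 in the second table, 7 on expected counts and 8 among coding transcripts. The causes were not tested.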

Other observations

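A pair of minor transcripts of these genes, chosen after their values were seen, differed between the libraries more than the genes they belong to. Atp2a2-205, a processed non-coding transcript of the SERCA2 gene, had 34.9 TPM in replicate 1 and 4.90 TPM in replicate 2 by the first table, and the authors' deposited bounds of 26.6 to 43.7 TPM and 2.64 to 7.42 TPM did not overlap. The second table gave 23.0 and 7.35 TPM. Pln-206, which carries the same phospholamban coding sequence as the other Pln transcripts, had 139 and 55.2 TPM by the first table, with deposited bounds of 118 to 155 TPM and 40.1 to 70.2 TPM. In the second table it had 28.2 and 24.1 TPM. These differences were not tested across transcripts.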
